A study of Mus musculus with 12 samples.

Results

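CpG-dense tiles inside genes are stretches of DNA that carry many CpG dinucleotides yet lie away from both ends of every protein-coding gene. They were found by position and coverage only. The autosomes of the mouse build mm10 were divided into non-overlapping tiles of 1000 bp counted from position 1, and a tile was kept when it held at least 25 CpGs with 10 or more methylation calls in each of the 12 libraries, lay within a protein-coding gene, and was more than 2 kb from the start and the end of every protein-coding gene. These rules gave 1242 tiles in 947 genes, of 87020 tiles with at least 3 such common CpGs on the autosomes and X. Methylation was measured by reduced representation bisulfite sequencing, which reads restriction fragments rich in CpGs after bisulfite has turned unmethylated, but not methylated, cytosines into uracil. The DNA came from CMM cells, a GFP-positive mouse leukaemia line used as a model of acute myeloid leukaemia with inv(16), which had been engrafted by vein into C57BL/6 mice. Treatment began at about 1% GFP-positive cells in blood and consisted of 3 intravenous injections, 1 every other day, of PBS or of CpG-STAT3dODN, a CpG oligonucleotide that carries a STAT3 decoy. The spleens were collected 1 day after the 3rd injection. The PBS group holds all GFP-positive cells of PBS-treated mice, the CD11b-negative group holds GFP-positive CD11b-negative cells of CpG-STAT3dODN-treated mice, and the CD11b-positive group holds their GFP-positive CD11b-positive cells, with 4 libraries in each group. CD11b is a surface integrin of maturing myeloid cells. All 3 groups share the engrafted line, the host strain and the GFP sort. PBS cells were not split by CD11b, so in comparisons with PBS the effect of treatment and that of sorting on CD11b cannot be told apart. Whether the 4 libraries of a group stand for 4 animals is not stated, and a p-value then covers only library-to-library spread, which may be technical. Age and sex of the mice were not used here.

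A CpG island is a stretch of DNA in which CpGs have not been lost to mutation, usually because it is kept unmethylated in the germ line. Most islands lie at gene starts, and others lie inside genes, where some of them act as alternative or tissue-restricted promoters. Methylation of an island is associated with silencing of a promoter in it, whereas the body of a transcribed gene is commonly methylated. Imprinted genes form a separate class, since one parental copy of their control region is methylated and the other is not. Leukaemia cells often carry methylated islands that are unmethylated in normal blood cells.

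Most of the intragenic tiles were unmethylated. By the mean over all 12 libraries, 956 tiles (77.0%) were methylated at under 20%, 204 (16.4%) at 20 to 80% and 82 (6.6%) at over 80%. The tiles held a median of 37 common CpGs, up to 130 in the tile in Fignl2, and a median of 3551 calls per tile and library, with no fewer than 373. The 95% Wilson interval of a tile's level in 1 library had a median half-width of 0.470 points and a largest half-width of 4.36 points, which covers counting error only. The 3 classes differed in place. Of 1003 tiles in genes whose strand is known, those under 20% lay at a median of 27.1% of the gene's length from its start, those at 20 to 80% at 49.5% and those over 80% at 73.6%. A RefSeq transcript start lay in 43.3% of the tiles under 20%, in 15.2% of those at 20 to 80% and in 1.22% of those over 80%. In all, 446 tiles (35.9%) held such a start. The gene table gives gene ends only, so exons and introns were not used here. Most genes held 1 tile (717), while 177 genes held 2, 43 held 3, 8 held 4 and 2 held 5. The genes with 4 or 5 tiles were Gse1, Nrg1, Agap3, Ebf3, Gnas, Rnf220, Shank3, Sox6, Tnrc18 and Zfp978, and they spanned every state. The 5 tiles of Gse1 were at 0.488 to 0.918%, the 4 of Sox6, which encodes a SOX-family transcription factor, at 0.706 to 3.50%, and the 5 of Nrg1 at 36.4 to 89.4%.

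Sequences were taken from RefSeq (GRCm38.p6, the assembly of mm10) as windows of 300 bases, 250 before and 50 after an annotated start, for tiles that hold a start of their own gene. They show the CpG-rich DNA at these starts and can reach beyond the tile. They are written 5′ to 3′ on the gene's strand, with every measured CpG in capitals and all else in lower case. Tafa5 (chr15:87624980-87625279, plus strand) and Begain (chr12:109053049-109053348, minus strand) are the starts in the called tiles with the largest losses, and Dzip1 (chr14:118922742-118923041, minus strand) is the only host-gene start in a called gain. Gnas (chr2:174329756-174330055, plus strand) and Runx3 (chr4:135152295-135152594, plus strand) were almost free of methylation in every library.
Tafa5: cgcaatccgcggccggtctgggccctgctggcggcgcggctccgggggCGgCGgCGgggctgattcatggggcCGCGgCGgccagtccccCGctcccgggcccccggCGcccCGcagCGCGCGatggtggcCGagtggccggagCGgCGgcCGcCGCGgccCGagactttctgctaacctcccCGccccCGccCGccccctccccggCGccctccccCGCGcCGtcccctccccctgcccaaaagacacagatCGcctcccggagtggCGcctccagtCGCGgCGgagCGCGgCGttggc
Begain: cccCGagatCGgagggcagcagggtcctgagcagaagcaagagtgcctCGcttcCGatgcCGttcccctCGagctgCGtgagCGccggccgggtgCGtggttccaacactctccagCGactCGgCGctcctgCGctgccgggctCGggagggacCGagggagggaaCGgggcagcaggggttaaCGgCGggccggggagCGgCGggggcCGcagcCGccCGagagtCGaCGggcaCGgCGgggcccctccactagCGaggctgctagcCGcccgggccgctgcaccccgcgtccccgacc
Dzip1: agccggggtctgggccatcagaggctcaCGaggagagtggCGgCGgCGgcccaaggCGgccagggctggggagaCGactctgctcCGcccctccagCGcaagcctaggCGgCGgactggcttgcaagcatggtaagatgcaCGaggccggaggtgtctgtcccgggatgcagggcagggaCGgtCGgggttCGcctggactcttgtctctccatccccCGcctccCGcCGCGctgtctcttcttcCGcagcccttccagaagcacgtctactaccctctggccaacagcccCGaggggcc
Gnas: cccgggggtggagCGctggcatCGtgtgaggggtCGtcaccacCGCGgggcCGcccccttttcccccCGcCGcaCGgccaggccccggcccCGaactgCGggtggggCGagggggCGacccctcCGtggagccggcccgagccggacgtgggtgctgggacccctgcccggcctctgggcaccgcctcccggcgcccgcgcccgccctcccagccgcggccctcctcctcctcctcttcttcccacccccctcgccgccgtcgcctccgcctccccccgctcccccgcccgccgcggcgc
Runx3: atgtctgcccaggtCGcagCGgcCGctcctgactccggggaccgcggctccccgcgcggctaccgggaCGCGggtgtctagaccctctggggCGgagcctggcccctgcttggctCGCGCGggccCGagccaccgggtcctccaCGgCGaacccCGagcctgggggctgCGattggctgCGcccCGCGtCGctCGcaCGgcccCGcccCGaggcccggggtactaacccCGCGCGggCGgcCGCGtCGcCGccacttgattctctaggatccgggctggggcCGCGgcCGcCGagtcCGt
The Tafa5 window holds 47 CpGs, of which 34 were measured, and its GC content is 81.0%. Its measured CpGs averaged 73.7% ± 8.95 methylation in PBS (SD, n = 4) and 37.4% ± 23.7 in CD11b-positive cells, and all 34 had a lower mean in CD11b-positive cells. The Begain window held 29 measured CpGs of 38, at 68.6% ± 5.86 and 37.3% ± 24.02, and again all 29 were lower. In the Dzip1 window, 19 of 20 measured CpGs were higher in CD11b-positive cells, at 14.1% ± 1.91 against 5.90% ± 0.110. The 14 measured CpGs of the Gnas window all lay before the first base of its tile, chr2:174330001-174331000, and so are not part of that tile's level. They averaged 0.289% ± 0.203 in PBS and 0.345% ± 0.352 in CD11b-positive cells. The 35 measured CpGs of the Runx3 window averaged 0.704% ± 0.156 and 0.703% ± 0.212. High CpG content was common to starts with opposite methylation states. The rule of at least 25 CpGs per tile favours this, and also the higher GC, CpG and GGGCGG values of the windows below. These values describe the chosen tiles, and no test was made. Over the 412 tiles with a start of their own gene, the windows had a median GC content of 68.0% and 27 CpGs, against 53.0% and 7 CpGs in the 31396 start windows of the autosomes. The motif GGGCGG, searched on both strands, was in 78.9% of these windows and in 36.0% of all. TTCCNGGAA, a narrow form of a STAT site, also on both strands, was in 0.485% (2 windows) and in 1.18% of all. GAGGAA, a core that PU.1 recognises, was in 25.5% and 28.2%, and CACGTG in 6.55% and 7.14%. No motif of the 4 contains another, and a match describes the letters of the window and is not a binding site.

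The libraries held 112671408 to 157223205 calls. Library 2 stood apart in both CD11b groups. Calls on 8 genes of the Y chromosome, per 1000000 autosomal calls, were 5.33, 18.1, 7.95 and 10.7 in PBS, 12.2, 39.2, 10.9 and 8.28 in CD11b-negative, and 24.2, 40.04, 23.3 and 23.2 in CD11b-positive libraries. The means were higher in CD11b-positive than in PBS libraries by 17.2 (exact permutation p = 0.0286, two-sided, adjusted to 0.0857 over 6 tests, where 0.0286 is the smallest p that 4 against 4 can give). Library 2 had the highest Y share of its group in all 3 groups. The 5th percentile of the tiles' levels was 0.270 to 0.499% over the 12 libraries, which is a ceiling for the level that incomplete conversion left in those tiles.

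CD11b-positive cells were first set against PBS cells, that is, the CD11b-positive subset of treated leukaemia against untreated leukaemia. In CD11b-positive cells the moderately methylated intragenic islands carried less methylation, and a smaller set carried more. This direction rests on the model without Y share. With Y share added, 1 of the calls below remained, and 27 of the 140 losses and 43 of the 46 gains kept their sign. Here and below, a difference from the model with Y share is that of fitted levels at the mean Y share of the compared libraries. The size limit of a call is then applied to it. The Y shares of these 2 groups did not overlap (5.33 to 18.1 in PBS, 23.2 to 40.04 in CD11b-positive libraries). The fitted difference is therefore an extrapolation for at least 1 group. A tile was called when a quasi-binomial F test, moderated across all tiles, gave a Benjamini-Hochberg adjusted p under 0.05 over the 87020 tiles and the group means differed by at least 10 percentage points. Of the 1242 tiles 186 were called (14.98%), 140 lower (11.3%) and 46 higher (3.70%). Over all 87020 tiles 36.3% were called, 3.76% lower and 32.5% higher. The median difference over the intragenic islands was 0.0255 points, with 5.0 over all tiles. In DNA of a bulk sort, a change in the share of cells that carry a mark and a change within cells cannot be told apart. The calls lay in 107 genes that lost and 41 that gained, and no gene held calls of both directions. The median loss among called tiles was -22.3 points (range -39.5 to -10.2) and the median gain 17.3 points (10.04 to 51.6). The libraries of the 2 groups did not overlap at 133 of the 140 losses and at all 46 gains. Called or not, the groups did not overlap in the lower direction at 263 of the 1242 tiles and in the higher direction at 194, and among all tiles at 5.88% and 50.3%. Of the 31548 called tiles of the series, 30021 had no overlap.

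Most of these calls were in the class at 20 to 80%, as they were over all tiles, where it held 27064 of 31548. Among the intragenic islands of this class 125 of 204 fell (61.3%) and 39 rose (19.1%), and over all tiles of this class 8.07% fell and 68.8% rose. In the class under 20%, 15 of 956 fell and 6 rose, where over all tiles of that class 371 of 24684 fell and 591 rose. In the class over 80%, 0 of 82 fell and 1 rose (Ccm2l, 1 tile named after its value was seen, up by 10.04 points). Over all tiles of that class 62 of 27141 fell and 3460 rose. Whether the intragenic islands differ from all tiles of their class was not tested. The mean level of the 204 tiles was 52.1, 44.7, 51.8 and 48.8% in PBS libraries 1 to 4 and 39.5, 29.3, 41.9 and 43.2% in CD11b-positive libraries 1 to 4. All 4 PBS libraries were above all 4 CD11b-positive libraries. As group values these were 49.4% ± 3.45 and 38.5% ± 6.28 (SD, n = 4), and CD11b-negative libraries lay at 44.8% ± 10.9. Tiles under 20% averaged 3.52% ± 0.306 in PBS and 2.91% ± 0.361 in CD11b-positive cells, and those over 80% averaged 90.1% ± 0.161 and 92.9% ± 0.593. The order of the 2 groups was thus opposite in the highly methylated tiles, where no library overlapped either. No p is given for these means, since they are scores over chosen tiles.

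**Figure D1:**
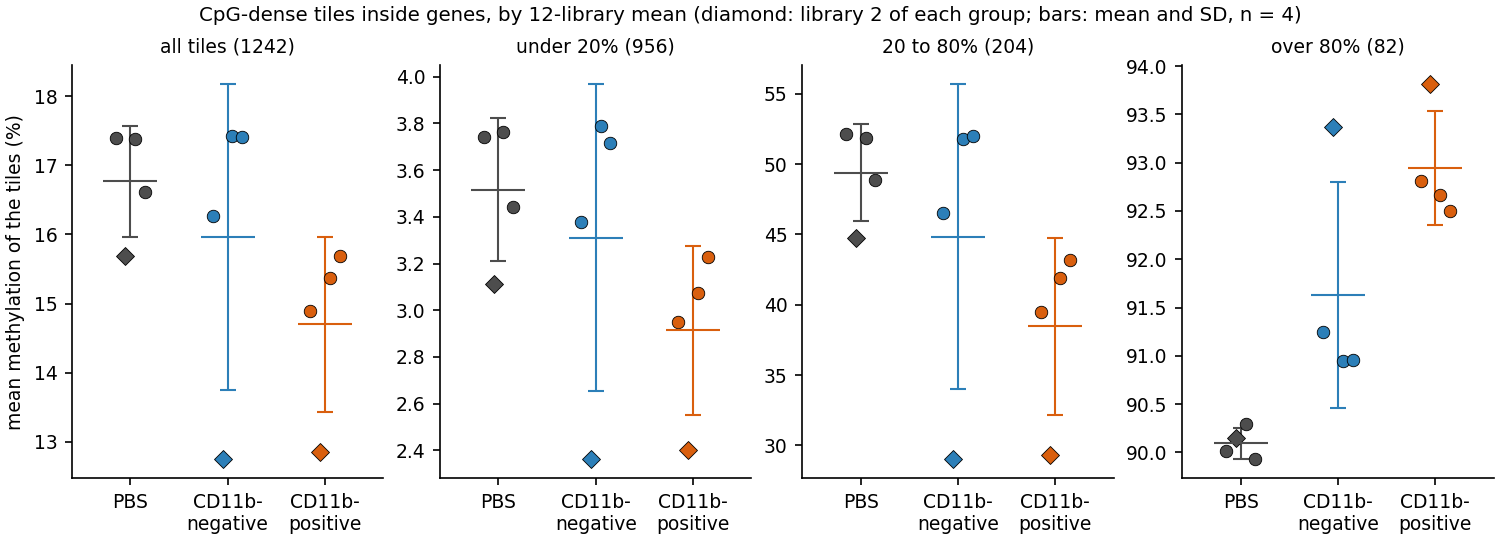
Mean methylation (%) of the CpG-dense tiles inside genes in each library, for all tiles and for 3 classes by 12-library mean, with group means and SD (n = 4) and library 2 of each group drawn as a diamond, on separate y axes that do not start at 0. In the class at 20 to 80% the CD11b-positive libraries lie between 29.3 and 43.2% and the PBS libraries between 44.7 and 52.1%.

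**Figure D2:**
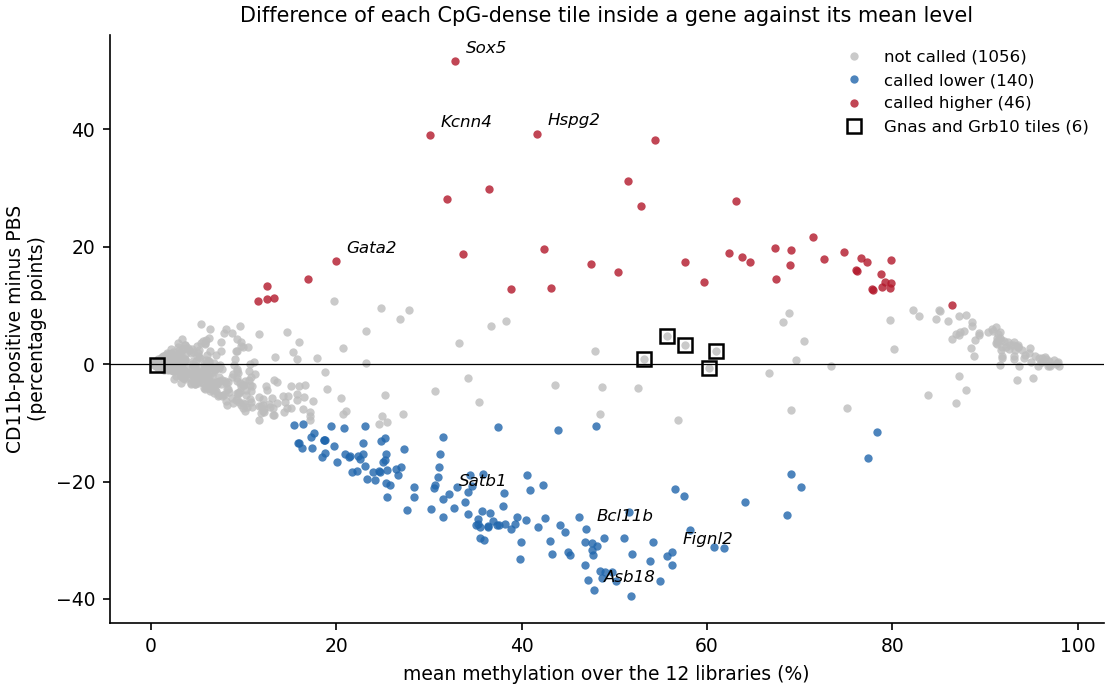
Difference of CD11b-positive minus PBS group means (percentage points) against the mean level over the 12 libraries (%) for each of the 1242 tiles, with called tiles coloured and tiles in Gnas and Grb10 outlined. Called losses reach -39.5 points and called gains 51.6 points, and the outlined tiles stay near 0.

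Tafa5 encodes a secreted chemokine-like protein of the nervous system. It held the largest loss, and 2 adjacent tiles in it fell. The first (chr15:87624001-87625000, 92 CpGs) measured 78.8, 59.1, 75.1 and 68.6% in PBS libraries 1 to 4, 60.1, 4.37, 74.1 and 77.8% in CD11b-negative and 31.8, 3.02, 44.96 and 43.7% in CD11b-positive libraries. Each CD11b-positive library lay below each PBS library, and library 2 was close to unmethylated in both CD11b groups. The group mean fell by 39.5 points, from 70.4% ± 8.64 to 30.9% ± 19.5 (adjusted p = 0.00608), and all 92 CpGs had a lower mean. The second (chr15:87625001-87626000, 72 CpGs), which holds the start of the Tafa5 window, fell by 37.00 points from 73.1% ± 10.1 (adjusted p = 0.0113, and 0.0513 in a fit of all 12 libraries).

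Nrg1, the gene of the ERBB receptor ligand neuregulin 1, held 5 intragenic islands, and 4 of them fell. At chr8:32008001-32009000 (44 CpGs) the PBS libraries measured 76.8, 56.03, 72.5 and 65.5%. The CD11b-negative libraries measured 62.2, 4.24, 67.6 and 74.3%. The CD11b-positive libraries measured 35.7, 3.98, 40.8 and 42.3%. Again PBS and CD11b-positive libraries did not overlap, and CD11b-negative libraries 1, 3 and 4 lay among the PBS values. The fall was 37.00 points here (adjusted p = 0.00576) and 35.3 points in the adjoining tile (adjusted p = 0.00781). Another pair in the same gene, at chr8:32883001-32885000, fell by 27.8 and 27.7 points. The remaining tile, at 89.4% over the 12 libraries, was not called.

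Begain encodes a protein of the postsynaptic density. Its tile chr12:109053001-109054000 (72 CpGs, 40.9% along the gene) measured 74.1, 57.6, 70.2 and 67.1% in PBS and 37.6, 2.17, 43.3 and 44.6% in CD11b-positive libraries, a fall of 35.4 points (adjusted p = 0.00861, and 0.0512 by edgeR's quasi-likelihood test). All 72 CpGs were lower, as were all CpGs of the tiles of Auts2, Epb41l3, Lrrc38, Asb18 and Fignl2 given next. Auts2, a neurodevelopmental gene whose product binds chromatin complexes, fell by 35.4 points at chr5:131538001-131539000 from 66.3% ± 9.85. Epb41l3 encodes a band 4.1 protein of the membrane skeleton and fell by 36.7 points at chr17:69157001-69158000 from 65.6% ± 8.65. Lrrc38, an auxiliary subunit gene of potassium channels, fell by 36.5 points at chr4:143350001-143351000 from 65.9% ± 10.7. Asb18, a SOCS-box protein gene, fell by 38.5 points at chr1:89968001-89969000, where CD11b-positive library 1 was at 18.4% and libraries 3 and 4 at 44.9 and 43.5%. Unc45b, a chaperone gene of muscle myosin, held a run of 3 called tiles over chr11:82930001-82933000 with 181 CpGs, which fell by 27.5 to 34.3 points. At the middle tile the adjusted p of 0.0106 became 0.0552 in the fit of all 12 libraries. Fignl2 carries the tile with the most CpGs, 130 at chr15:101053001-101054000. It measured 78.1, 62.9, 77.5 and 72.8% in PBS, 59.6, 11.2, 75.95 and 73.4% in CD11b-negative and 48.3, 13.1, 49.4 and 52.2% in CD11b-positive libraries, with no overlap between PBS and CD11b-positive. Its fall of 32.1 points had an adjusted p of 0.00803, and of 0.0527 in the fit of all 12 libraries. With each library's Y share added to the model, the sign turned at both Tafa5 tiles, at the adjoining Nrg1 tiles that fell by 37.0 and 35.3 points, at the middle Unc45b tile and at the tiles of Begain, Auts2, Epb41l3, Lrrc38, Asb18 and Fignl2 (1.67 to 9.05 points), and none of them was called.

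Some losses lay in runs of adjacent tiles. Of 179 pairs of adjacent intragenic islands, both members were called in 27, each time in 1 direction, and only 1 member in 8. The called losses formed 21 runs that held 44 of the 140 tiles, and the gains formed 4 runs that held 8 of the 46. The runs of 3 were in Unc45b and in Kcnn2, a potassium channel gene named after its values were seen, where the fall was 26.6 to 27.4 points. Within called tiles most CpGs went in the tile's direction, which the choice of tiles with a large difference favours. All CpGs of the tile had a lower mean at 101 of the 140 losses, and all had a higher mean at 17 of the 46 gains. The median share of CpGs in the tile's direction was 100% and 96.7%.

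The gains were in fewer and less CpG-rich tiles, with a median of 29.5 CpGs against 43 in the losses, and lay further along their genes, at a median of 65.5% of the length against 37.3%. A RefSeq start lay in 2 of the 46 gains and in 31 of the 140 losses. The largest gain of the 46 was at chr6:143833001-143834000 (26 CpGs), close to the 3′ end of Sox5, which encodes a SOX-family transcription factor. It measured 3.42, 9.05, 8.53 and 9.28% in PBS, 23.6, 72.2, 17.5 and 13.9% in CD11b-negative and 53.7, 84.2, 45.8 and 52.9% in CD11b-positive libraries. All CD11b-positive libraries were above all PBS libraries, and all CD11b-negative libraries were too. The rise from 7.57% ± 2.78 to 59.1% ± 17.1 was 51.6 points (adjusted p = 0.000882).

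Kcnn4, the gene of a calcium-activated potassium channel of blood cells, rose by 39.03 points at chr7:24377001-24378000 (37 CpGs, adjusted p = 0.000991). Its PBS libraries measured 5.87, 17.4, 12.3 and 12.6% and its CD11b-positive libraries 43.5, 67.5, 44.4 and 48.8%. CD11b-negative libraries 1, 3 and 4 were at 18.8, 18.4 and 15.5%, and library 2 at 55.9%. No PBS library reached the lowest CD11b-positive library. Hspg2, which encodes the basement membrane proteoglycan perlecan, rose by 39.3 points at chr4:137518001-137519000 from 22.4% ± 10.7 (adjusted p = 0.00502). Rnf220, a ubiquitin ligase gene, rose by 38.2 points at chr4:117304001-117305000 from 35.1% ± 13.4, while its other 3 islands were not called. Shank3, a scaffold gene of excitatory synapses, had 2 adjacent tiles that rose by 29.9 and 31.2 points (chr15:89523001-89525000). Arhgap9, a gene expressed in blood cells, rose by 28.1 points at chr10:127326001-127327000. Bsn, which encodes the presynaptic protein Bassoon, rose by 27.9 points at chr9:108106001-108107000, and Mex3a, an RNA-binding protein gene, by 26.9 points at chr3:88536001-88537000. Jag2, a Notch ligand gene, rose by 21.7 points at chr12:112913001-112914000, from 58.1, 64.4, 58.04 and 61.4% in PBS to 86.4, 91.2, 75.3 and 76.02% in CD11b-positive libraries. With Y share added to the model, the difference was 27.6 points at Sox5 (adjusted p = 0.0559) and 20.9 points at Kcnn4 (adjusted p = 0.0338), it turned to -2.93 points at Rnf220, and the other gains named here kept their sign without being called.

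**Figure D3:**
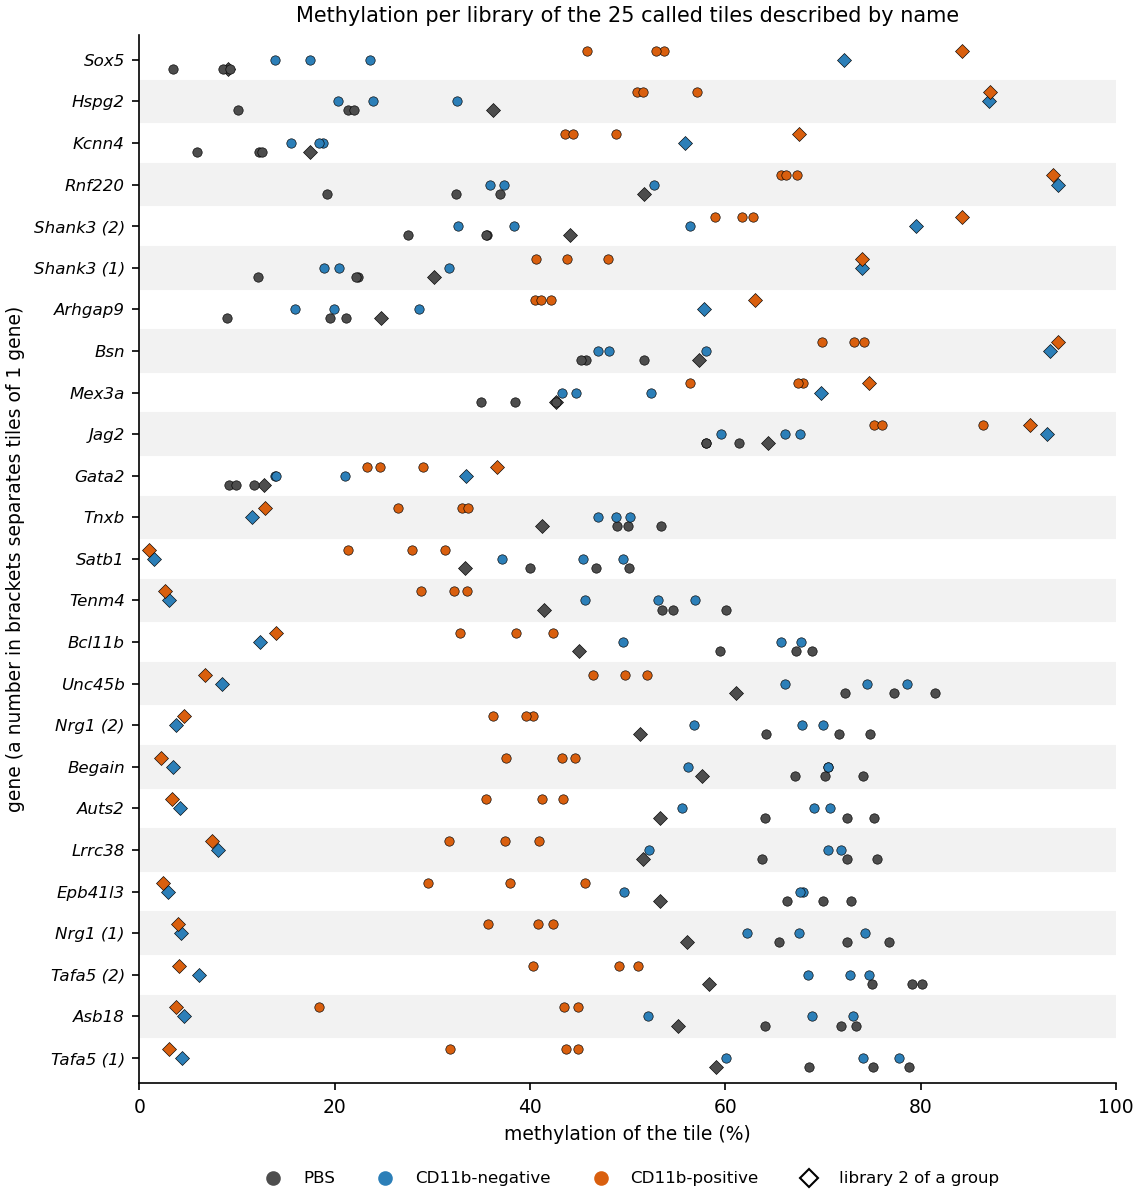
Methylation (%) of 25 called tiles in each of the 12 libraries, 1 row per tile ordered by the difference of CD11b-positive from PBS, with library 2 of each group as a diamond. In the rows of Tafa5, Nrg1 and Auts2 both CD11b libraries 2 lie at 3.02 to 6.07%, and in the rows of Hspg2 and Rnf220 they lie at 87.02 to 94.02%.

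The CD11b-negative group mean lay between those of PBS and CD11b-positive cells at all 140 losses and all 46 gains, a place that the choice of tiles with a wide gap between the other groups favours. The 4 CD11b-negative libraries were unlike at these tiles. The median level over the 140 losses was 52.8, 38.8, 50.4 and 46.1% in PBS libraries, 37.9, 4.34, 49.8 and 51.7% in CD11b-negative libraries, and 24.6, 4.01, 28.9 and 31.3% in CD11b-positive libraries. CD11b-negative libraries 3 and 4 lay within the PBS range, and library 2 was close to CD11b-positive library 2. Library 2 was the lowest of its group at 136 of the losses in PBS, at all 140 in CD11b-negative and at 139 in CD11b-positive cells. Over the 46 gains the medians were 48.8, 58.5, 52.4 and 54.4% in PBS, 57.2, 84.2, 55.4 and 52.3% in CD11b-negative, and 68.9, 84.9, 67.3 and 68.9% in CD11b-positive libraries. Library 2 was the highest of its group at 41, 46 and 45 of the gains in PBS, CD11b-negative and CD11b-positive cells. Library 2 also had the highest Y share of each group. Without CD11b-positive library 2, 166 tiles were called, 124 lower and 42 higher (31.3% of all tiles, 3.05% lower and 28.2% higher), and all 166 were among the 186. With each library's Y share added to the model, 1 tile was called (Kcnn4, by 20.9 points), where over all tiles 0.113% were, and of the 186 differences 43 of 46 gains but 27 of 140 losses kept their sign.

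**Figure D4:**
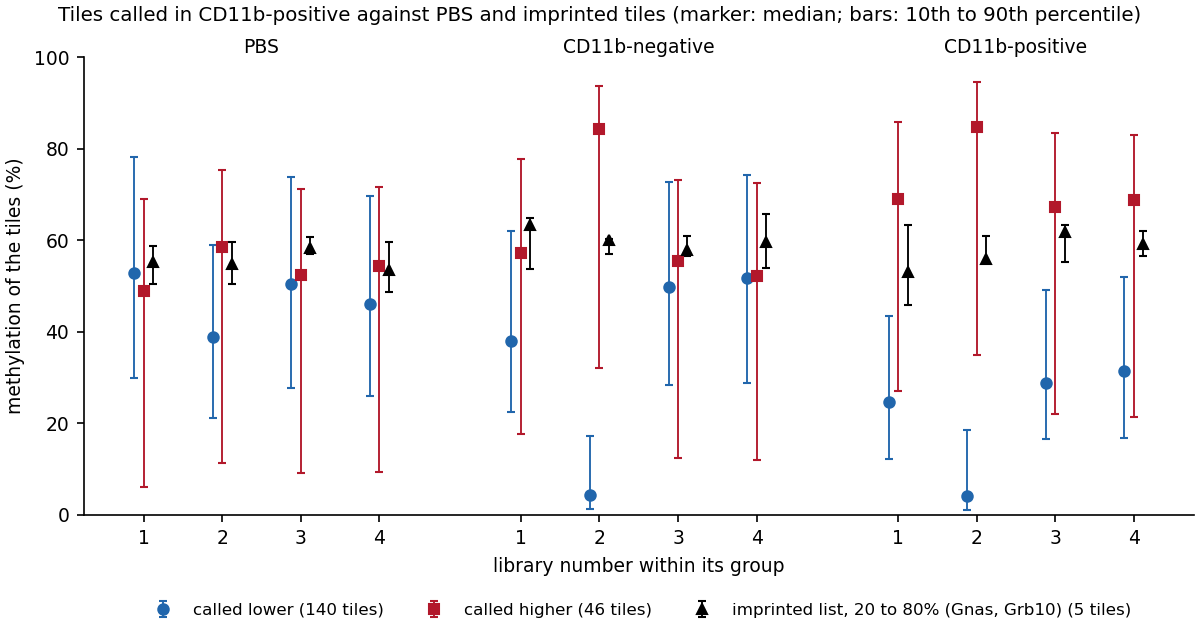
Median methylation (%) with the 10th to 90th percentile over tiles, in each of the 12 libraries, for the tiles called lower (140), the tiles called higher (46) and the 5 tiles of imprinted genes at 20 to 80%. The medians of the losses are 4.34 and 4.01% in library 2 of the CD11b groups, while the imprinted tiles keep medians of 53.1 to 63.3% in all 12 libraries.

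Islands of imprinted genes were not called. Of 38 listed imprinted genes and hosts of control regions, Gnas, Grb10, Igf2 and Zim1 held 9 intragenic islands, and 0 of 9 were called, where 36.3% of all tiles were, with a median difference of 0.904 points. Whether imprinted tiles differ from other tiles was not tested. The 5 at 20 to 80% were in Gnas and Grb10. Gnas encodes the alpha subunit of the stimulatory G protein and has several imprinted starts. Its tile chr2:174300001-174301000 measured 58.3, 58.4, 58.4 and 61.1% in PBS, 65.4, 60.3, 59.04 and 68.3% in CD11b-negative and 53.1, 57.4, 64.04 and 59.2% in CD11b-positive libraries. The groups overlapped, and library 2 lay among the others. The tile chr2:174328001-174329000 measured 51.8, 51.99, 56.6 and 52.4% in PBS and 63.7, 54.7, 55.7 and 58.1% in CD11b-positive libraries (adjusted p = 0.0686). Only 2 kb on, the tile chr2:174330001-174331000 (78 CpGs) with the start of the Gnas window was at 0.418 to 0.798% over the libraries. Grb10 encodes an adaptor that restrains growth factor signalling. Its tile chr11:12026001-12027000 (52 CpGs) measured 59.02, 60.4, 61.9 and 57.3%, 63.3, 59.1, 62.3 and 61.7% and 62.7, 63.3, 61.8 and 59.6% in the 3 groups, a difference of 2.22 points from PBS to CD11b-positive (adjusted p = 0.128). Over the 5 tiles the 12 libraries spanned 6.01 to 19.1 points per tile (median 11.9). In all, 40 of the 204 tiles of this class were not called. These 40, which include the 5, had a median difference of -0.472 points and spanned 5.58 to 33.2 points per tile (median 15.1). The 2 tiles of Igf2, a growth factor gene, were at 4.38% ± 0.425 and 11.1% ± 2.23 in PBS and at 2.97% ± 0.635 and 7.86% ± 3.09 in CD11b-positive cells. At the first of them the groups did not overlap (-1.42 points, adjusted p = 0.00232, under the size needed for a call), and library 2 was the lowest of each group. At the second they overlapped (adjusted p = 0.11). The tile of Zim1, a zinc-finger gene, was higher by 5.10 points with no overlap, also under that size (adjusted p = 0.00171).

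Genes were also read by lists. The counts that follow are tiles, and the same counts over all tiles were 3.76% lower and 32.5% higher, with a median difference of 5.0 points. Homeobox, PAX, SOX and T-box transcription factor genes held 47 islands in 27 of 66 listed genes, 40 of them under 20%. In that list 3 rose and 3 fell, with a median difference of -0.0619 points. The gains were Sox5, Hoxa3 (+17.1 points) and Cux2 (+16.0 points). The losses were 2 tiles of Satb1, a chromatin organiser of T cell development, and 1 of Tbx3 (-20.7 points). The larger Satb1 loss, at chr17:51813001-51814000, went from 50.1, 33.3, 46.7 and 40% in PBS to 21.4, 1.02, 27.96 and 31.3% in CD11b-positive libraries (-22.1 points, adjusted p = 0.019). The sign turned (10.4 points) with Y share added to the model. The call was lost with edgeR's quasi-likelihood test (adjusted p = 0.114), in the fit of all 12 libraries (0.0689) and without PBS library 1 (0.0540). In this list Hoxa3, Cux2 and Tbx3 were named after their values were seen.

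Haematopoietic transcription factor genes held 32 islands in 20 of 54 genes, and 26 were under 20%. The median difference was 0.119 points, with 2 called higher and 1 lower. Gata2, a regulator of blood stem cells, rose by 17.5 points at chr6:88196001-88197000 (28 CpGs, adjusted p = 0.000944). Its libraries measured 9.22, 12.7, 11.7 and 9.86% in PBS, 21.05, 33.4, 13.9 and 14.01% in CD11b-negative and 29.01, 36.6, 24.6 and 23.3% in CD11b-positive cells. All CD11b-negative and CD11b-positive libraries were above all PBS libraries. With Y share added to the model, the Gata2 difference was 10.1 points (adjusted p = 0.0726). Cbfa2t3, a transcriptional corepressor gene named after its value was seen, rose from 7.43% ± 2.62 to 18.7% ± 6.32. Bcl11b, a zinc-finger gene of the T lineage, fell by 28.2 points at chr12:107980001-107981000, from 68.9, 45.1, 67.2 and 59.4% in PBS to 32.9, 14.03, 38.6 and 42.4% in CD11b-positive libraries (adjusted p = 0.00951, and 0.0578 in the fit of all 12 libraries); with Y share added to the model the difference was 3.90 points. The most CpG-rich island of the list, in Runx3, had 97 CpGs and was at 0.542 to 0.897% over the libraries.

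Neuronal channel, receptor and synapse genes held 38 islands in 24 of 52 genes, 31 of them under 20%, with 3 called higher and 5 lower and a median difference of -0.0866 points. The gains were the 2 tiles of Shank3 and 1 of Shank2 (+16.9 points). The losses included tiles of Tenm4 (-28.1), Tenm3 (-27.4), Rims1 (-20.6) and Rbfox3 (-10.6 points). Shank2, Tenm3, Rims1 and Rbfox3 were named after their values were seen. Tenm4 encodes a teneurin, a transmembrane protein of neuronal wiring. Its tile chr7:96210001-96211000 measured 60.1, 41.4, 54.7 and 53.5% in PBS, 45.7, 3.02, 53.1 and 56.9% in CD11b-negative and 28.9, 2.66, 32.2 and 33.6% in CD11b-positive libraries (adjusted p = 0.00915). PBS and CD11b-positive libraries did not overlap, and with Y share added to the model the difference was 6.08 points. Matrix genes held 3 islands in 2 of 35 genes and all 3 were called. Hspg2 rose, and 2 adjacent tiles of Tnxb, the tenascin X gene, fell by 21.9 and 11.2 points. With Y share added to the model, the larger Tnxb difference was -1.71 points (adjusted p = 0.843). Genes of Notch, Wnt, Hedgehog and TGF-beta signalling held 12 islands in 9 of 52 genes, with 2 called higher, Jag2 and Wnt4 (+13.2 points, named after its value was seen), and none lower.

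The enzymes that write, erase and read chromatin marks had islands that were nearly all unmethylated, and none was called. The list held 18 islands in 13 of 49 genes, 17 of them under 20% and 1 at 91.3%. Of these, 0 were called, with differences of -0.241 to 4.01 points. Calls were rare at such levels in general, at 2.20% of the intragenic islands under 20% and 3.90% of all tiles under 20%. The most CpG-rich of them, in Arid1a, a SWI/SNF subunit gene (chr4:133753001-133754000, 81 CpGs), measured 0.508, 0.573, 0.637 and 0.551% in PBS and 0.573, 0.380, 0.441 and 0.689% in CD11b-positive libraries. The study's stated question concerns DNA methyltransferases, and this list holds 3 islands in Dnmt3a and 1 in Dnmt1, named here for that reason. Dnmt1 keeps methylation through cell division and Dnmt3a adds it. Their 12-library means were 0.610, 0.620 and 1.39% in Dnmt3a and 0.546% in Dnmt1, and none of the 4 was called. Methylation of an island is not a measure of the level of the enzyme. Genes of TLR9, NF-kB, interferon and JAK-STAT signalling held 4 islands in 3 of 57 genes, all at 0.479 to 1.83% and none called. Stat5b, a transcription factor gene of that pathway, had 82 CpGs at 0.498 to 0.804%. Lists of marker genes of other cells held few islands or none. The B cell list had 3, all in Pax5 at 4.02 to 10.4%, the erythroid and megakaryocyte list had 1 at 1.49%, and the housekeeping list 2 at 0.542 and 0.567%, with 0 calls in each. The T and NK cell, stromal and endothelial, monocyte, macrophage and neutrophil, and clustered protocadherin lists had none, so these islands give no value for those cells.

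Most of the unmethylated islands varied little. Of the 956 tiles under 20%, 535 were under 2% in every library and 683 differed by less than 1 point between CD11b-positive and PBS, while the groups did not overlap in the higher direction at 94 and in the lower direction at 134. Among all 24684 tiles at that level the groups did not overlap at 2973 and 2145. Celf2, an RNA-binding protein gene, and Map3k1, a kinase gene, hold the most CpG-rich of the 956 islands. The Celf2 tile chr2:6872001-6873000 (116 CpGs) was at 0.875% ± 0.0806 in PBS and 1.05% ± 0.318 in CD11b-positive cells. The Map3k1 tile chr13:111808001-111809000 (115 CpGs) was at 0.591% ± 0.0975 and 0.718% ± 0.0480. The 15 losses in this class ranged from -15.8 to -10.2 points and the 6 gains were in Gata2, Atn1, Adcy9, Cbfa2t3, Dzip1 and Mast3, at 10.8 to 17.5 points. Of these, Atn1, Adcy9, Dzip1 and Mast3 were named after their values were seen. Dzip1 encodes a ciliary zinc-finger protein. Its tile chr14:118922001-118923000 measured 6.64, 7.29, 8.19 and 6.88% in PBS, 8.25, 20.7, 10.8 and 8.76% in CD11b-negative and 19.98, 21.2, 16.2 and 16.03% in CD11b-positive libraries. No PBS library overlapped a CD11b-positive one, and CD11b-negative library 2 lay among the CD11b-positive values (adjusted p = 0.000584).

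CpG density went with the direction of the calls. Among tiles inside genes and over 2 kb from gene ends, those with 3 to 9 CpGs were called higher at 10677 of 24455 and lower at 493. With 10 to 24 CpGs the counts were 893 and 177 of 3658, with 25 to 39 they were 40 and 63 of 678, with 40 to 59 they were 6 and 44 of 375, and with 60 or more they were 0 and 33 of 189. The level moved with density too, since CpG-poorer tiles averaged 62.4% ± 1.41 in PBS and the intragenic islands 16.8% ± 0.803. Within the class at 20 to 80%, 9943 of 13550 CpG-poorer tiles rose and 577 fell, against 39 and 125 of 204 intragenic islands. CpG-dense tiles near gene starts or ends had 31 gains and 499 losses of 611 in that class, and CpG-dense tiles outside genes 0 and 52 of 65. Intragenic islands with a RefSeq start had 1 gain and 26 losses of 31 in that class, and those without one 38 and 99 of 173. These counts are descriptions, and the differences between classes of tiles were not tested. At the limits of the rule, 121 tiles with 25 or 26 CpGs averaged 24.04% in PBS and 23.3% in CD11b-positive cells, and 172 intragenic tiles with 23 or 24 CpGs averaged 27.2 and 26.5%. Tiles up to 500 bp beyond the limit of 2 kb from a gene end (130) averaged 13.5 and 12.2%, and those up to 500 bp within it (196), which are no intragenic islands by the rule, averaged 14.9 and 12.6%.

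**Figure D5:**
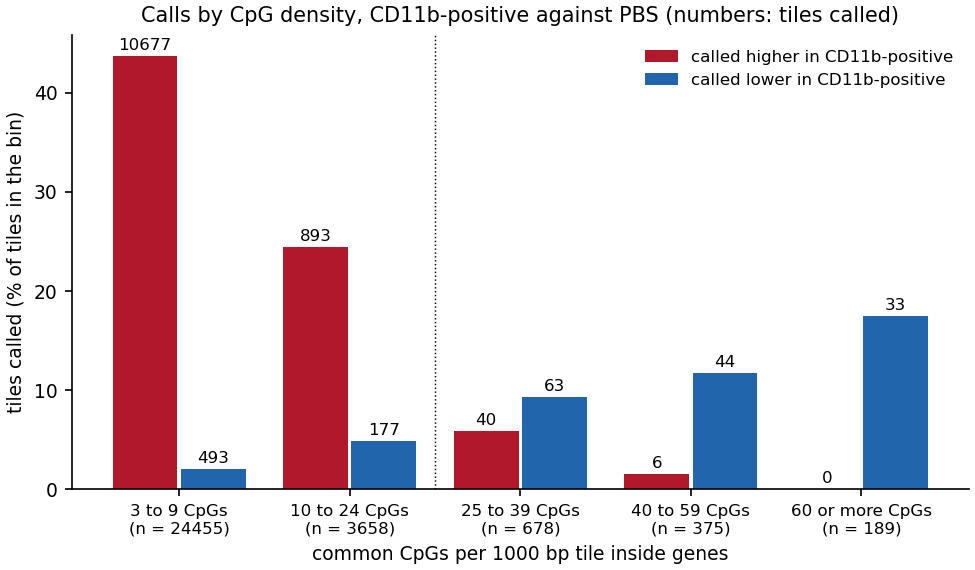
Share of tiles inside genes (% of each bin) called higher or lower in CD11b-positive than in PBS cells, by the number of common CpGs in the tile, with the number of called tiles above each bar; bins right of the dotted line are the CpG-dense tiles. Gains go from 10677 of 24455 tiles in the lowest bin to 0 of 189 in the highest, and losses from 493 to 33.

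CD11b-negative and PBS cells were compared to ask how the treated leukaemia cells outside the CD11b-positive subset differ from untreated ones. No intragenic island was called (0 of 1242, and 0.0% of all tiles, with a lowest adjusted p of 0.487). At an unadjusted p under 0.05 there were 95 (9.92% of all tiles), and edgeR's quasi-likelihood test and limma called 0. The spread within the CD11b-negative group was wide. The mean over the 1242 tiles was 17.4, 15.7, 17.4 and 16.6% in PBS and 16.3, 12.7, 17.4 and 17.4% in CD11b-negative libraries, a difference of -0.803 points, and 0.269 without CD11b-negative library 2. At the tiles of Sox5, Gata2 and Mex3a every CD11b-negative library was above every PBS library. The differences of 24.2, 9.72 and 12.9 points did not pass the test. These 2 groups did not overlap in the higher direction at 57 of the 1242 tiles and at 8854 of the 87020. In the lower direction the counts were 6 and 342. With Y share added to the model, the Sox5 difference was 14.1 points and was called (adjusted p = 0.0268), the 1 call among the intragenic islands in that fit (0.114% of all tiles).

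CD11b-positive and CD11b-negative cells of treated mice are the comparison the study names first. No intragenic island was called when the libraries were treated as unpaired (0 of 1242, 0.0% of all tiles, lowest adjusted p 0.386), with 117 at an unadjusted p under 0.05 (10.9% of all tiles) and 0 by edgeR's quasi-likelihood test. Same-numbered libraries of these 2 groups deviated together, with the highest correlation for library 2 (0.926). CD11b-positive libraries 1, 3 and 4 correlated slightly more with another number (0.211, 0.664 and 0.69). The labels state no pairing, so the block assumes it. With the library number as a block, 115 tiles were called, 97 lower and 18 higher, where 13.5% of all tiles were called, 1.97% lower and 11.5% higher. Without CD11b-negative library 2 the unpaired test called 175, 134 lower and 41 higher (20.4% of all tiles, 2.72% lower and 17.7% higher). Without library 2 of both groups it called 156, 127 lower and 29 higher (20.4% of all tiles, 2.69% lower and 17.7% higher). With Y share added to the model, 8 tiles were called (0.0655% of all tiles), all 8 higher (0.0437%). Tiles in Nrg1, Auts2, Tenm4 and Unc45b, which had lower group means in CD11b-positive cells, were among them. In Auts2 and Unc45b these were other tiles. The Auts2 tile and the middle Unc45b tile described above were not called in this fit (adjusted p = 0.191 and 0.0915). Of the 2 adjoining Nrg1 tiles described above, the first was called (adjusted p = 0.0494) and the second was not (0.0711). The median difference from CD11b-negative cells was -12.8 points over the 140 losses and 8.92 points over the 46 gains. Both comparisons use the same CD11b-positive libraries, so these values do not stand apart from each other. In the tile of Kcnn4 all CD11b-positive libraries were above CD11b-negative libraries 1, 3 and 4, and the blocked test gave an adjusted p of 0.00123. In the first Tafa5 tile the difference was -23.2 points, with an adjusted p of 0.386 unpaired and 6.21e-05 with the block. At Gnas and Grb10 the 5 tiles at 20 to 80% differed by -4.85 to 2.14 points and were not called either way.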

How the data were processed

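Reduced representation bisulfite libraries of sorted CMM cells were compared, 4 in each of 3 groups taken from the group labels of the samples. The deposited files hold raw counts of methylated and unmethylated calls per CpG cytosine and strand, 1 file per library. Per the submitters' processing notes, the authors used Bismark on mm10, and the notes also name cutadapt 2.7, Trim Galore 0.6.4 and methylKit 1.20.0, without their order. Bismark's version, its settings, any removal of duplicates and the conversion rate: not given in the sources used here. Reads without molecular identifiers can count 1 molecule more than once.

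From these, both strands of a CpG were summed, CpGs with at least 10 calls in all 12 libraries were kept (1052856, median 84 calls), and their calls were summed in 1000 bp tiles. Gene spans came from RefSeq (GRCm38.p6, the assembly of mm10). Strand was taken from RefSeq start windows where these exist. No genome was used, so the sequences printed are such windows, chosen after results were seen. A tile's level is methylated calls over all calls, as a percent. Each tile was tested on the 8 libraries of the groups compared by a quasi-binomial logistic model and an F test, with Pearson dispersion moderated by empirical Bayes in 5 classes of tile level (limits 5, 20, 80 and 95%) and held at 1 or more. Adjustment (Benjamini-Hochberg) ran over 87020 tiles. On simulated counts for those 87020 tiles with 100 tiles shifted by 15 points and another 100 by 30 points, the test found 7 and 47 of them in the design of CD11b-positive against PBS (1 call among unshifted tiles). It found 1 and 17 in that of CD11b-negative against PBS (2 such calls). In that of CD11b-positive against CD11b-negative it found 0 and 2 (0 such calls). In this setting the last 2 designs thus found few of the shifts. The shifted tiles were few among the 87020, were drawn from low to middle levels and were only moved upward. Where more tiles differ, the Benjamini-Hochberg limit is less strict, so these shares do not carry over to the data.

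The alternatives were 20 calls per CpG, edgeR 4.0.16, limma 3.58.1 on mean CpG levels, all 12 libraries in 1 fit, library number as a block, Y share as a term, 20 points, 40 CpGs, 5 kb, and leaving out each library. Leaving out library 2 of both CD11b groups was chosen after the data were seen. Numbers were checked for pairing by correlating the deviations of same-numbered libraries from their group means over 87020 tiles. For CD11b-positive and CD11b-negative cells all 4 correlations were above 0.1 (0.159, 0.926, 0.654 and 0.682), and the block was fitted as if numbers were pairs. The labels do not state pairing, and 3 of the 4 libraries correlated slightly more with another number. Since library 2 stood apart in both groups, the deviations of the other libraries can correlate whether or not numbers pair them. The check could therefore not show pairing. With PBS, library 4 had correlations of -0.0990 and -0.131, and the numbers were not taken as pairs.

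Tiles were named by rule, as the 10 called gains and 10 called losses of largest size whose groups do not overlap, the largest called gain and loss of each of 15 gene lists, all imprinted tiles, the most CpG-rich tile of 4 lists, and the 3 most CpG-rich tiles of all. The value of 1 called tile is not reported here. The tiles, lists and tests were chosen with earlier results of these data known. Work was done in Python 3.11.15 (numpy 2.4.6, scipy 1.17.1, pandas 2.3.3, matplotlib 3.10.9) and R 4.3.3.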

Additional observations from a re-analysis of the deposited data

Results flagged for a closer look

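In 17 of 93 groups of 4 libraries tested (class means, Y share and the called tiles given by name), 1 library lay far from the other 3 by Dixon's criterion. That criterion is set so that about 1 of 20 independent groups meets it by chance. These groups are the same 12 libraries seen over nested classes and at tiles picked for large differences, so that rate does not apply to the count. Library 2 was the one apart in 16 of the 17. For class means this was CD11b-negative library 2 at 93.4% over the tiles above 80%. For the Y share it was CD11b-negative library 2 at 39.2 and CD11b-positive library 2 at 40.04 calls per 1000000 autosomal calls. Among gains, CD11b-positive library 2 was high at Rnf220 (93.6%), Hspg2 (87.1%), Arhgap9 (63.0%) and Shank3 (84.3%), and CD11b-negative library 2 was high at Sox5 (72.2%) and Kcnn4 (55.9%). Among losses, CD11b-positive library 2 was low at Tenm4 (2.66%), Nrg1 (4.62%), Unc45b (6.76%), Begain (2.17%) and Fignl2 (13.1%), and CD11b-negative library 2 was low at Tafa5 (6.07%) and Tnxb (11.5%). The exception was PBS library 1 at Sox5, with 3.42%, below the other PBS libraries.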

How the results depend on the processing

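For CD11b-positive against PBS, the 186 called tiles became 185 with 20 calls per CpG, 147 by edgeR, 181 by limma, 131 with all 12 libraries in 1 fit, 188 with the replicate block, and 166 to 194 on leaving out 1 library. Stricter rules gave 94 (at least 20 points), 83 (at least 40 CpGs) and 121 (over 5 kb from gene ends), all from fewer tiles or a higher limit. Over all tiles 36.3% were called in the main fit, 31.3% without CD11b-positive library 2 and 0.113% with the Y share term. The share over all tiles is not given here for the other settings of this comparison. Whether their changes are particular to these tiles can therefore not be read from the counts. With Y share added to the model 1 tile was called, and the cause was not tested. The mean difference of -2.07 points was -3.43 over tiles with at least 40 CpGs and -2.43 to -1.45 on leaving out 1 library. With the Y share term 15 differences took the other sign: Asb18 5.33, Lrrc38 1.67, Auts2 7.57, Tenm4 6.08, Nrg1 2.89 and 6.58, Unc45b 9.05, Bcl11b 3.90, Begain 6.10, Tafa5 3.19 and 8.65, Fignl2 2.80, Satb1 10.4, Epb41l3 4.81 and Rnf220 -2.93 points; the cause was not tested. For CD11b-negative against PBS the count of 0 became 1 with the Y share term (Sox5), and the mean difference of -0.803 points ranged from -1.29 to 0.269 on leaving out 1 library. For CD11b-positive against CD11b-negative the count of 0 became 115 with the replicate block, 8 with the Y share term, 0 to 175 on leaving out 1 library (175 without CD11b-negative library 2) and 156 without library 2 of both groups, with a mean difference of -1.26 points (-2.34 to -0.652 on leaving out 1 library). The block changed no call among the tiles given by name against PBS. Of the 40 named tiles, edgeR, the fit of all 12 libraries and the absence of PBS library 1 ended the calls stated beside them in the text. Tiles held 373 or more calls in each library. How many molecules these calls stand for is not known, since removal of duplicates is not given.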
